A study of Mus musculus with 9 samples.

Results

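The phagocyte NADPH oxidase was followed through 7 of its genes: Cybb, Cyba, Ncf1, Ncf4, Rac1, Rac2 and Hvcn1. These were chosen by name as components or partners of the enzyme, with earlier results of these data known. They are 7 of the 55655 rows in each deposited expression table, each with 1 row. Bone marrow-derived macrophages (BMDMs) were grown from the femurs and tibias of wild type C57BL/6 mice aged 6 to 8 weeks, over 7 days with 10 ng/mL M-CSF, and 9 RNA-seq libraries were made, 3 in each of 3 groups. M0 cells received M-CSF alone. M1 cells were given LPS at 100 ng/mL together with IFN-γ at 20 ng/mL for 12 h, the stimulus of inflammatory macrophage polarization. M1 + PBM cells received the same stimulus and photobiomodulation (PBM), which is irradiation with red or near-infrared light, here from an 808-nm laser at 6 mW/cm2 for 7 min every 12 h from the time the stimulus was added. Values were FPKM, fragments per kilobase of transcript scaled to the mapped total of the library. M1 and M1 + PBM stood in 1 table and M0 in another, so levels in M0 were set beside the others with no test between tables. The labels do not say whether the 3 libraries of a group came from separate animals or cultures, and p-values therefore measure the spread between these libraries.

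The enzyme transfers electrons from cytosolic NADPH across a membrane to oxygen and so makes superoxide, which phagocytes use against ingested microbes and as a signal. Its catalytic core, cytochrome b558, is a membrane pair of gp91phox (encoded by Cybb, also called Nox2) and p22phox (Cyba). On stimulation cytosolic subunits, among them p47phox (Ncf1) and p40phox (Ncf4), together with a GTP-bound Rac protein (Rac1 or Rac2), move to that core. The proton channel encoded by Hvcn1 carries protons out along with the electrons and so balances their charge.

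The libraries were first checked against their labels. All 10 macrophage markers, among them Adgre1, Csf1r and Cd68, were detected, and the summed FPKM of that list was 6489 to 11388 per library. The 11 measured genes induced by inflammatory polarization summed to 4157 to 4456 in M1 and 2599 to 3575 in M1 + PBM, against 7.35, 4.69 and 149.3 in M0 replicates 1, 2 and 3. M0 replicate 3 thus stood apart from the other M0 libraries, and it also held a summed FPKM of 191.1 for 7 stromal markers, against 6.94 and 5.62, with Col1a1 at 122.8. M0 means of the oxidase genes without it were 147.2 for Cybb, 352.5 for Cyba, 53.1 for Ncf1, 52.9 for Ncf4, 25.1 for Rac1, 58.4 for Rac2 and 62.8 for Hvcn1, in FPKM. Neutrophils carry much of this oxidase, and their 14 markers summed to 14.8 to 28.5 in M0, 111.8 to 164.2 in M1 and 105.3 to 109.8 in M1 + PBM. Most of that sum was Csf3r, 10 of the 14 were under an FPKM of 1 in all 9 libraries, and S100a9, Ly6g and Ctsg were listed at 0 in all. Of the other 4, as deposited, Csf3r, S100a8 and Camp were higher in M1 than in M0 without overlap, against 15.6% of rows. Mmp8 overlapped, and 0 were lower, against 50.6% of rows. S100a8 averaged 1.51, 16.9 and 8.79 FPKM in M0, M1 and M1 + PBM, and Camp 0.251, 1.84 and 1.43. The part of the neutrophil sum in the values below was not tested. Markers of lymphoid cells (9 genes) and dendritic cells (7 genes) were each under an FPKM of 1 in all libraries.

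The promoters of 3 of the 7 genes were in the RefSeq sequences at hand (GRCm38.p6), each covering 250 bases before and 50 bases after the annotated start. They are shown because myeloid transcription factors and interferon-activated factors are known to act on this gene group. Each is written 5′ to 3′ on the strand of the gene. Capitals mark matches on either strand to GAGGAA (the core bound by PU.1, encoded by Spi1), GGAANNGAA (from the composite ETS-IRF element) or GAAANNGAA (from the core of the interferon-stimulated response element, ISRE).
Cybb, chrX:9469275-9469574, minus strand: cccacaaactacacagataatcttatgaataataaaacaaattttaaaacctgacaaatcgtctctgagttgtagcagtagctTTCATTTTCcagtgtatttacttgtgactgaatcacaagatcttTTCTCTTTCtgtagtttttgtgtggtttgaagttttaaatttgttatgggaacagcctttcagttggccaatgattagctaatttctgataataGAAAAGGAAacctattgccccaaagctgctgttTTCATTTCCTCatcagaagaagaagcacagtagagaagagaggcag
Cyba, chr8:122432891-122433190, minus strand: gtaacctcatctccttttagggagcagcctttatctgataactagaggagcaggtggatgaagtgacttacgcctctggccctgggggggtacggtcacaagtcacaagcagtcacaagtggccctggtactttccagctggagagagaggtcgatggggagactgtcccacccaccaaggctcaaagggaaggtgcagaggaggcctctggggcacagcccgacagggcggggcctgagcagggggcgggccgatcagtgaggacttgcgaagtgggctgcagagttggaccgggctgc
Ncf1, chr5:134229576-134229875, minus strand: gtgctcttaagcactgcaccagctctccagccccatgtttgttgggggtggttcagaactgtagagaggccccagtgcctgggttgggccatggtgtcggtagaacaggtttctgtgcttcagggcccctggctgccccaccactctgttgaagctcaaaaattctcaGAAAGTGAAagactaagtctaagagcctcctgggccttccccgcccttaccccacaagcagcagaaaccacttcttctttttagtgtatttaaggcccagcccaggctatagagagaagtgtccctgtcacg
Counting from the first base printed, the Cybb window held the ISRE core at bases 84 to 92, 128 to 136 and 222 to 230, and the composite element at bases 255 to 263, which overlaps a PU.1 core at bases 260 to 265. The Ncf1 window held 1 ISRE core, at bases 169 to 177, overlapping a match to TTCNNNGAA (the gamma-interferon activation site, GAS) at bases 163 to 171. The Cyba window matched none of these letters. Among 32851 RefSeq promoter windows, 8.56% held the ISRE letters, 8.24% those of the composite element, 28.3% the PU.1 core and 8.30% the GAS letters. The matches are descriptions of sequence and no binding was measured. Their part in the levels of these genes was not tested.

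Of the membrane pair, the gp91phox gene was higher in M1 than in M0 and the p22phox gene was not separated from it. Cybb (ENSMUSG00000015340) read 146.5, 147.8 and 170.4 FPKM in M0 replicates 1 to 3, 479.4, 569.8 and 348.6 in M1, and 491.0, 579.0 and 355.6 in M1 + PBM. Every stimulated library lay above every M0 library, and the lowest M1 value was 2.05 times the highest M0 value. Mean FPKM was 154.9 ± 13.4 (SD, n = 3) in M0, against 465.9 ± 111.2 in M1 and 475.2 ± 112.5 after PBM (SD, n = 3 each), or 3.01 and 3.07 times M0. By mean FPKM Cybb was row 167 of the table in M0, 56 in M1 and 51 in M1 + PBM. In bulk RNA, a change in the number of cells of a type and a change in RNA per cell cannot be told apart.

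Cyba (ENSMUSG00000006519), whose protein stabilises gp91phox, gave 338.4, 366.6 and 335.5 FPKM in M0, 417.4, 435.3 and 284.4 in M1, and 393.5, 426.2 and 320.3 in M1 + PBM. The 3 groups overlapped, because replicate 3 of both stimulated groups fell below every M0 library. Means were 346.8 ± 17.2 in M0, 379.0 ± 82.4 in M1 and 380.0 ± 54.2 after PBM (SD, n = 3 each).

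The genes of 2 cytosolic subunits were also higher in M1 than in M0, by smaller ratios than Cybb. For Ncf1 (ENSMUSG00000015950), the p47phox organiser, FPKM was 58.7, 47.5 and 74.7 in M0, 115.5, 142.0 and 112.5 in M1, and 122.2, 163.6 and 107.6 in M1 + PBM. All 6 stimulated libraries were above all 3 M0 libraries, with means of 60.3 ± 13.7 in M0, 123.3 ± 16.2 in M1 and 131.1 ± 29.0 after PBM (SD, n = 3 each), or 2.05 and 2.17 times M0. Ncf4 (ENSMUSG00000071715), the p40phox subunit that binds phosphatidylinositol 3-phosphate on phagosomes, read 59.1, 46.8 and 48.3 FPKM in M0, 104.4, 102.1 and 75.7 in M1, and 100.8, 110.7 and 80.5 in M1 + PBM. These groups did not overlap M0 either, with means of 51.4 ± 6.73 in M0, 94.1 ± 15.9 in M1 and 97.3 ± 15.4 after PBM (SD, n = 3 each), 1.83 and 1.89 times M0.

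The Rac genes differed from M0 in opposite directions as deposited. Rac2 (ENSMUSG00000033220), the Rac of blood cells, gave 63.0, 53.8 and 88.2 FPKM in M0, 202.7, 170.8 and 261.1 in M1, and 201.0, 192.0 and 240.7 in M1 + PBM. Its groups did not overlap M0, and the means of 211.5 ± 45.8 in M1 and 211.2 ± 25.9 in M1 + PBM were 3.10 and 3.09 times the M0 mean of 68.3 ± 17.8 (SD, n = 3 each). Rac1 (ENSMUSG00000001847), the widely expressed Rac, gave 25.5, 24.8 and 24.2 FPKM in M0, 17.2, 18.3 and 18.6 in M1, and 49.0, 18.7 and 20.1 in M1 + PBM. All M1 libraries were below all M0 libraries, at 0.727 times the M0 mean, and in M1 + PBM a single library, replicate 1, was far above the rest. Of the exonic bases of Rac1, 51.4% also lie in Daglb on the opposite strand, and whether counting used strand is not given in the sources used here. Daglb itself read 35.2, 36.2 and 11.6 FPKM in M0, 1.97 to 4.47 in M1 and 3.59 to 4.21 in M1 + PBM, so it varied across M0 libraries in which Rac1 differed little, and was 3.59 in the library where Rac1 stood out. Its part in the Rac1 values was not tested.

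Hvcn1 (ENSMUSG00000064267), the proton channel, had the widest spread of the 7 genes relative to its mean in M1. It read 51.2, 74.3 and 42.2 FPKM in M0, 63.2, 96.0 and 18.7 in M1, and 48.1, 73.2 and 29.1 in M1 + PBM. The 3 groups overlapped, and replicate 2 was the highest and replicate 3 the lowest in each. Means were 55.9 ± 16.6, 59.3 ± 38.8 and 50.1 ± 22.1 (SD, n = 3 each). Here too 44.2% of exonic bases are shared with a gene on the opposite strand, Tctn1, which read only 2.50 to 3.53 FPKM in all libraries.

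**Figure D1:**
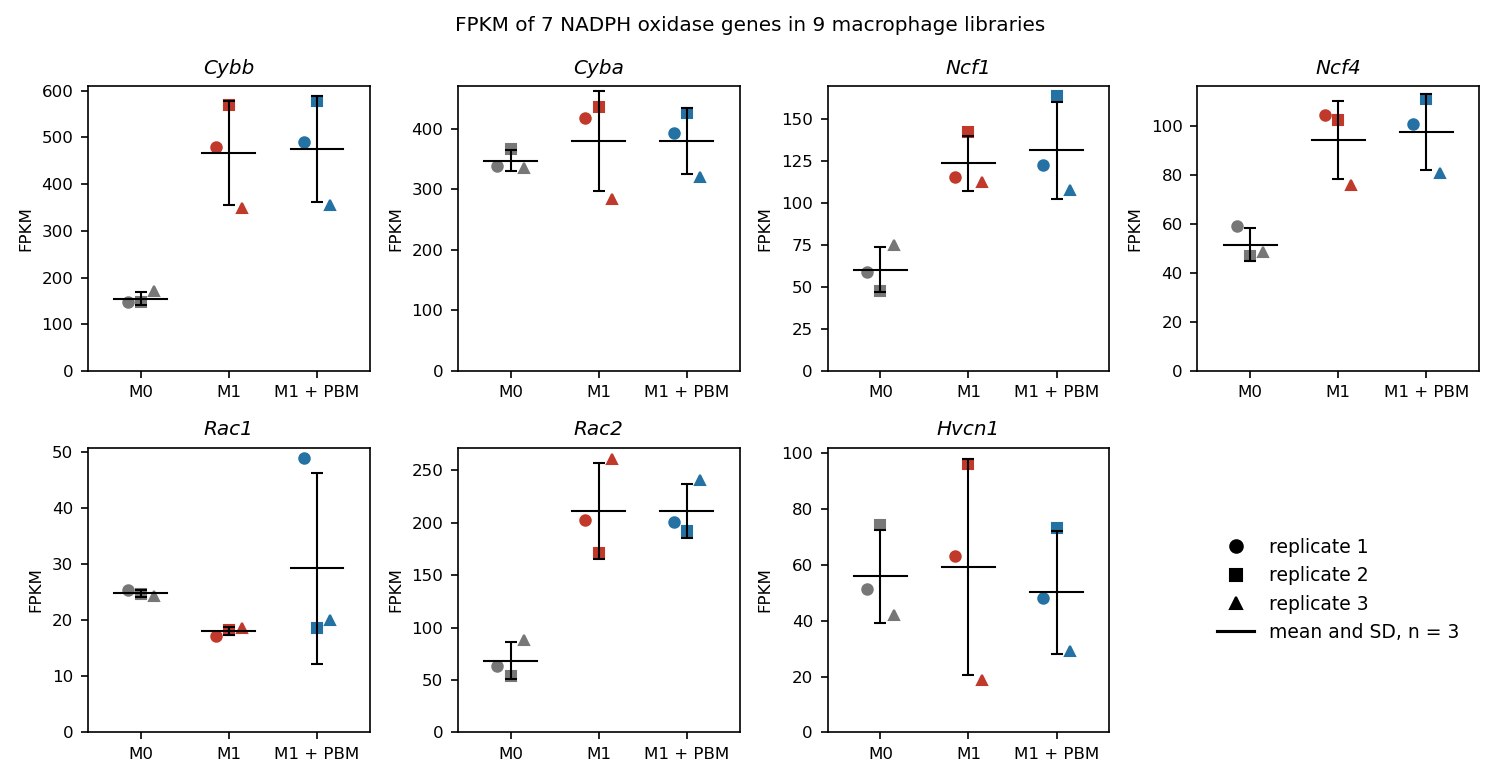
FPKM of the 7 oxidase genes (vertical axes, each from 0) in M0, M1 and M1 + PBM, with 1 point per library, the marker shape giving the replicate number, and bars for the mean and SD of 3 libraries. Cybb, Ncf1, Ncf4 and Rac2 lie higher in all stimulated libraries than in M0, Cyba and Hvcn1 overlap, and Rac1 is set apart in M1 + PBM by 1 library at 49.0.

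Counted without a test, 4 of the 7 genes (Cybb, Ncf1, Ncf4 and Rac2) were higher in M1 than in M0 without overlap, against 15.6% of the 13915 rows that reached an FPKM of 1 in 3 or more of the 9 libraries. Rac1 was the 1 gene that was lower without overlap, as were 50.6% of rows. Adding a mean at least 2 times as high left Cybb, Ncf1 and Rac2, 3 of 7 against 9.42% of rows, and 0 lower against 23% of rows. M1 + PBM beside M0 shared the M0 libraries and gave the same 4 genes higher without overlap (15.9% of rows) and 0 lower (46.2% of rows). With the factor of 2 these were again Cybb, Ncf1 and Rac2 (8.88% of rows higher, 18.2% lower). The median log2 difference between M1 and M0 was 0.85 over the 7 genes and -0.34 over all rows, on the scale log2(FPKM + 1). Read as transcribed, 0.247% of the 50-base stretches of Ncf1, 0.502% of those of Rac2 and 0 of the others occur in the transcripts of another gene. That count leaves out genes on the opposite strand, which share 51.4% of the exonic bases of Rac1, 44.2% of those of Hvcn1 and 11.1% of those of Ncf1 (with Gtf2ird2, at 2.08 to 3.80 FPKM in all libraries).

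That shift of the whole table mattered for the smaller differences. FPKM divides by the total of each library. The top 3 rows alone held 31.4% to 37.8% of the summed FPKM in M0 libraries and 30.9% to 36.6% in M1 and M1 + PBM libraries. The part of these rows in the shift was not tested. Rescaling the 9 libraries by the median of ratios brought the all-row median from -0.34 to 0.04 for M1 beside M0 and from -0.27 to 0.04 for M1 + PBM beside M0. The log2 differences of M1 from M0 then went from 1.56 to 2.06 for Cybb, from 1.62 to 2.12 for Rac2, from 1.04 to 1.53 for Ncf1 and from 0.85 to 1.35 for Ncf4. Those 4 genes were thus above M0 under both scalings, whereas Rac1 changed from -0.44 to 0.04 and overlapped M0. Cyba changed from 0.10 to 0.61 and no longer overlapped, which made 5 of 7 genes higher, against 31.6% of rows, and 0 lower, against 25.3%. In M1 + PBM beside M0 the scaled counts were likewise 5 higher (30.3% of rows) and 0 lower (23.8% of rows).

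**Figure D2:**
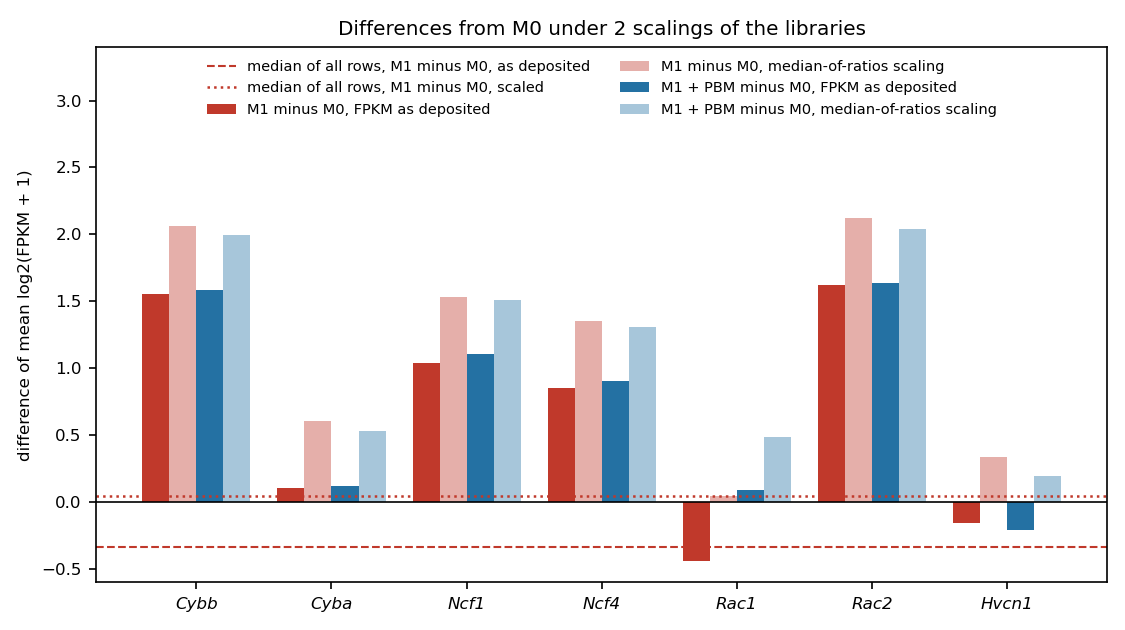
Difference in mean log2(FPKM + 1) from M0 (vertical axis) for each oxidase gene, in M1 (red) and M1 + PBM (blue), as deposited (dark) and after median-of-ratios scaling (pale), with the all-row medians for M1 as lines. Cybb and Rac2 have the tallest bars under both scalings, and Rac1 in M1 lies at -0.44 as deposited and 0.04 after scaling.

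Ratios of 2 genes within a library do not depend on that scaling. Rac2 over Rac1 was 2.17 to 3.64 in M0 and 9.35 to 14.0 in M1, a 4.29-fold difference of geometric means. The Rac2 row thus read higher per length in all of these libraries, and by a wider margin after stimulation. The overlap of Rac1 with Daglb, given above, applies to this ratio too, and its part in it was not tested. Cybb over Cyba was 0.403 to 0.508 in M0 and 1.15 to 1.31 in M1, 2.75-fold apart. The gp91phox transcript was thus below its partner in the 3 M0 libraries and above it in the 3 M1 libraries, and it was also above it in the 3 M1 + PBM libraries, at 1.11 to 1.36. Ncf1 over Ncf4 overlapped between M0 (0.993 to 1.55) and M1 (1.11 to 1.49), and Ncf1 over Cybb touched between them (0.321 to 0.438 and 0.241 to 0.323).

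The 4 ratios were compared between M1 + PBM and M1 by the exact two-sided permutation test, in which 3 libraries against 3 can reach no p below 0.1, and after adjustment over the 4 each p was 1. The log2 ratio in M1 + PBM minus that in M1 was 0.01 for Cybb over Cyba (p = 0.9, exact permutation), 0.02 for Ncf1 over Ncf4 (p = 1, exact permutation) and 0.04 for Ncf1 over Cybb (p = 0.9, exact permutation). Rac2 over Rac1 differed by -0.54 (p = 0.5, exact permutation), with 4.10 in M1 + PBM replicate 1 and 10.3 and 12.0 in the other libraries. Without that library the difference was -0.06.

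**Figure D3:**
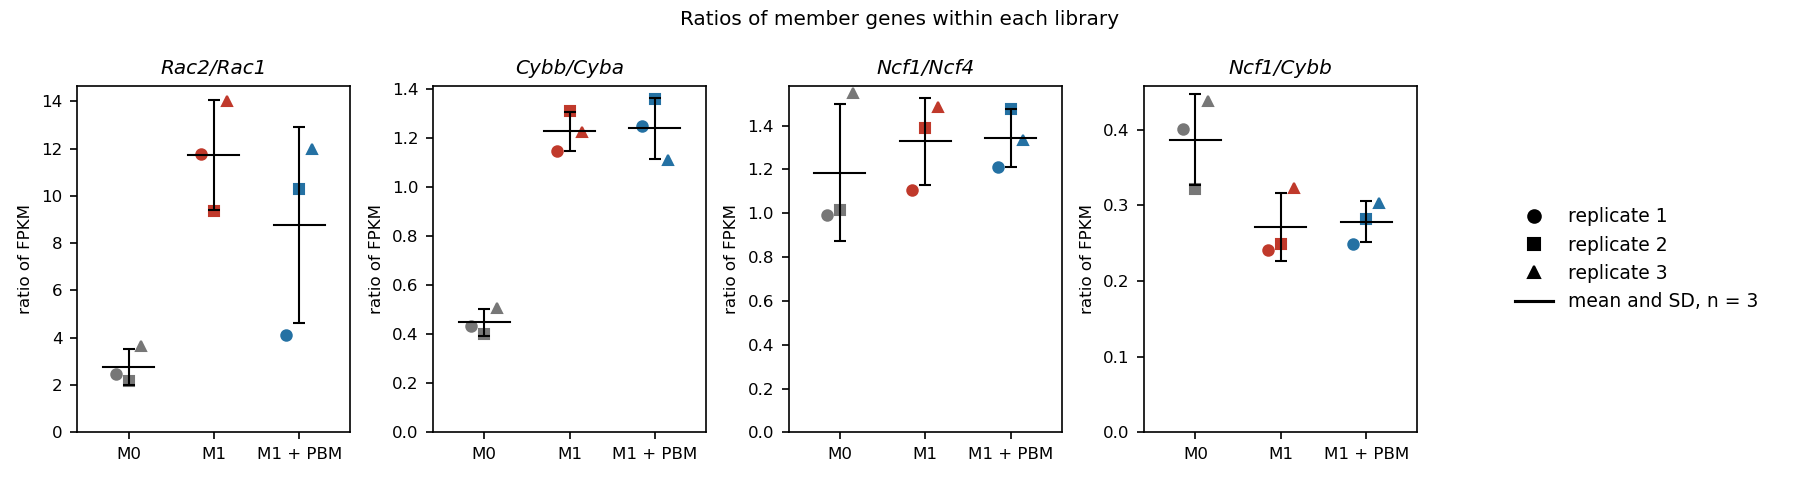
Ratio of FPKM between pairs of oxidase genes within each library (vertical axes, each from 0) in M0, M1 and M1 + PBM, with 1 point per library and bars for the mean and SD of 3 libraries. Rac2 over Rac1 and Cybb over Cyba are higher in every M1 library than in any M0 library, and M1 + PBM replicate 1 is low at 4.10 for Rac2 over Rac1.

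The order of the genes by mean FPKM, a scale corrected for length, changed at the top between M0 and the stimulated groups. In M0 it ran Cyba, Cybb, Rac2, Ncf1, Hvcn1, Ncf4, Rac1, and the neighbours Rac2 and Ncf1, Ncf1 and Hvcn1, and Hvcn1 and Ncf4 overlapped in range. In M1 and in M1 + PBM it ran Cybb, Cyba, Rac2, Ncf1, Ncf4, Hvcn1, Rac1. Cybb and Cyba overlapped in range in both, although Cybb was the higher in 3 of 3 libraries of each. Ncf4 and Hvcn1 overlapped in M1, and Ncf1 and Ncf4 as well as Hvcn1 and Rac1 in M1 + PBM.

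The comparison the study was built for is that of irradiated with unirradiated M1 macrophages, and in it 0 of the 7 oxidase genes passed. In limma on log2(FPKM + 1) over 12238 rows, 0 of 7 had an adjusted p under 0.05, as against 0.00817% of rows, which is 1 row, lower in M1 + PBM and no oxidase gene. With p unadjusted, 0 of 7 were again at or under 0.05, against 4.44% of rows. The thresholds of the study add a log2 fold change of 1 or more in size, which 0 of 7 met, against 0.261% of rows (0.0245% higher and 0.237% lower). Those shares belong to this limma fit, with 32 rows in all, 29 of them lower. The study names no test for its genes. At the same thresholds it reports many more genes, most of them upregulated, so its calls are not reproduced here. The median log2 fold change of the 7 was 0.03 and that of all rows 0.06.

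For Cybb the log2 fold change was 0.03 with a 95% interval of -0.57 to 0.62 (limma, adjusted p = 0.98), and Cyba gave 0.02 with an interval of -0.47 to 0.51 (limma, adjusted p = 0.99). The cytosolic subunits lay as close, Ncf1 at 0.07 (-0.37 to 0.52) and Ncf4 at 0.05 (-0.38 to 0.48), and so did Rac2 at 0.01 (-0.43 to 0.45). These intervals do not show that the levels were alike. For Hvcn1 the estimate was -0.05 and the interval, -1.55 to 1.45, was the widest of the 7.

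Rac1 had the largest estimate, 0.53 with an SE of 0.35 and an interval of -0.31 to 1.37 (limma, adjusted p = 0.90). It was also the 1 gene of the 7 whose M1 + PBM libraries all exceeded its M1 libraries, as in 8.51% of rows (0 of 7 were lower without overlap, against 2.52%), but by a ratio of only 1.00 between the lowest M1 + PBM and the highest M1 value. The estimate rested on M1 + PBM replicate 1, where Rac1 was 2.43 times the highest other library of the table. Without that library the log2 fold change was 0.10. A value at least 2 times every other library was uncommon in that library, with 9 rows or 0.0735% of those tested.

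Most of the spread of these genes lay between replicate numbers and was shared by both groups. Of the sum of squares of log2(FPKM + 1) over the 6 libraries, 99.8% lay between replicate numbers for Cybb, 94.1% for Cyba, 90.3% for Ncf1, 95.2% for Ncf4, 91.5% for Rac2 and 90.9% for Hvcn1, against a median of 52.5% over all rows. Rac1, at 31.2%, was the exception. In replicate 3 of both groups Cybb, Cyba, Ncf1, Ncf4 and Hvcn1 were at their lowest, and Rac2 was at its highest. The order of the 3 replicates was the same in M1 and M1 + PBM for 5 of the 7 genes, all but Ncf4 and Rac1, and for 33.1% of rows.

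**Figure D4:**
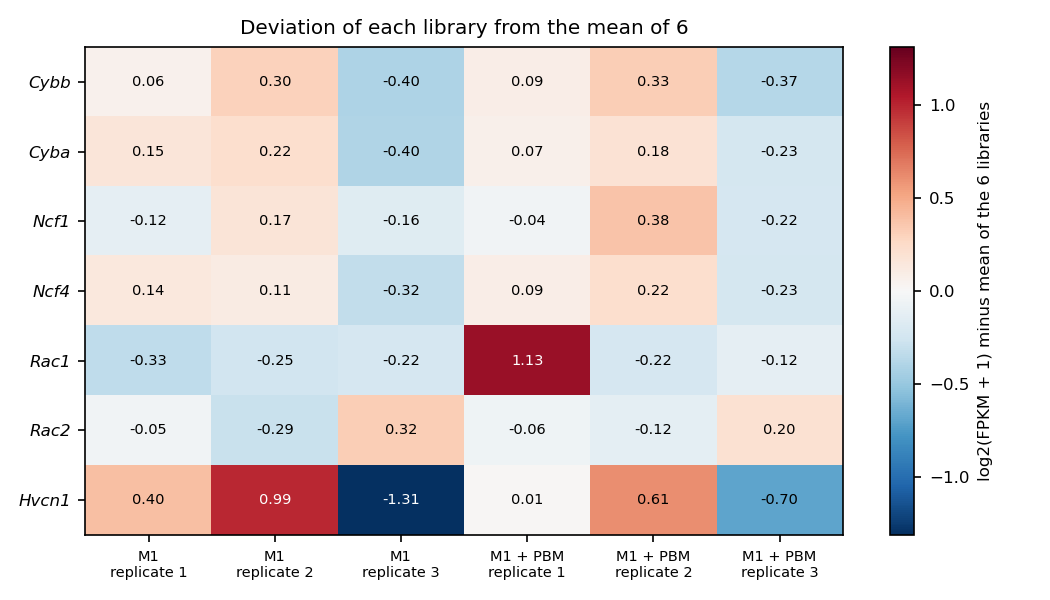
Log2(FPKM + 1) of each oxidase gene (rows) in each M1 and M1 + PBM library (columns) minus the mean of the gene over these 6 libraries, as printed in the cells and by colour. Replicate 3 is low in both groups for Cybb, Cyba, Ncf1, Ncf4 and Hvcn1 and high for Rac2, and Rac1 is high in M1 + PBM replicate 1 alone.

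Within replicate numbers, the difference between M1 + PBM and M1 was small for Cybb in each of the 3 pairs, at 0.03, 0.02 and 0.03 on the log2 scale. Cyba gave -0.08, -0.03 and 0.17, and Ncf1 0.08, 0.20 and -0.06, so that their sign was not shared by the 3 pairs. The same held for Ncf4 (-0.05, 0.12 and 0.09), Rac2 (-0.01, 0.17 and -0.12) and Hvcn1 (-0.39, -0.39 and 0.62). Only Cybb and Rac1 had 1 sign in 3 of 3 pairs, Rac1 with 1.46, 0.03 and 0.10. Blocking on the replicate number narrowed the 95% interval to -0.16 to 0.22 for Cybb, -0.21 to 0.25 for Cyba, -0.15 to 0.30 for Ncf1, -0.15 to 0.25 for Ncf4 and -0.22 to 0.24 for Rac2. It stayed wide for Hvcn1 (-0.65 to 0.54) and Rac1 (-0.28 to 1.34). No call changed.

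**Figure D5:**
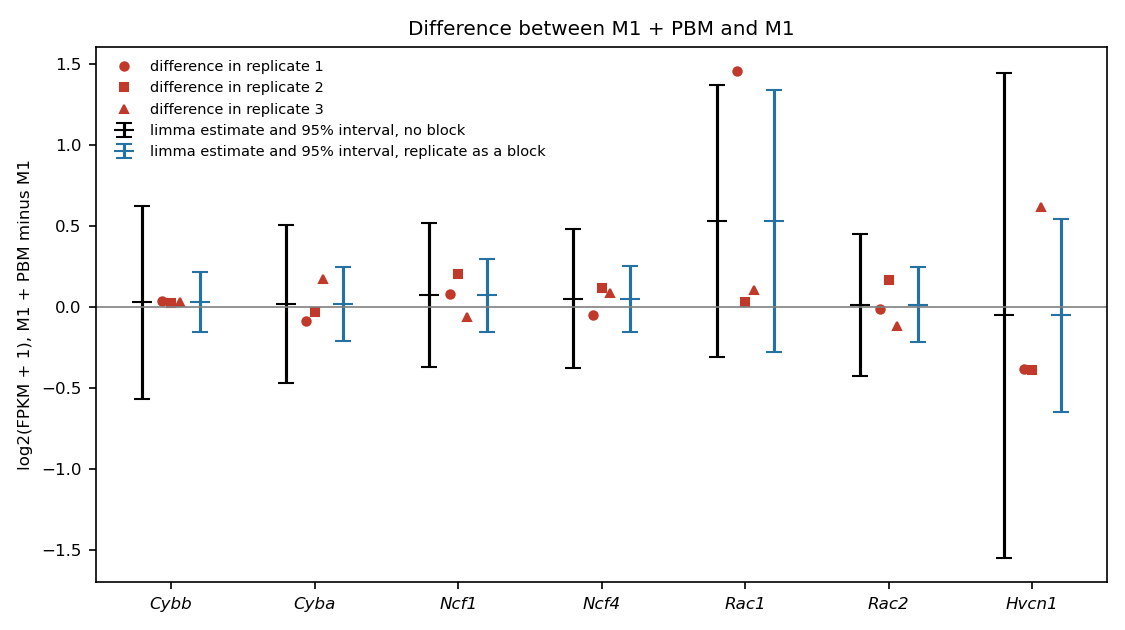
Difference in log2(FPKM + 1) between M1 + PBM and M1 (vertical axis) for each oxidase gene, with points for the 3 replicate numbers and with the limma estimate and 95% interval in black for the fit without blocks and in blue for replicate numbers as blocks. All intervals span 0, and the points of Cybb lie together at 0.02 to 0.03 while replicate 1 of Rac1 lies at 1.46.

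Between genes, the same libraries gave different pictures with and without M0. Over the 6 stimulated libraries Pearson r of log2(FPKM + 1) with Cybb was 0.954 for Cyba, 0.952 for Ncf4, 0.95 for Hvcn1, 0.852 for Ncf1, 0.0771 for Rac1 and -0.955 for Rac2. Over all 9 libraries it was 0.526 for Cyba, 0.966 for Ncf4, 0.140 for Hvcn1, 0.963 for Ncf1, -0.164 for Rac1 and 0.861 for Rac2. The sign for Rac2 thus turned, since Rac2 was high with Cybb in the stimulated groups and opposite to it among their replicates. These are descriptions over libraries that share replicate numbers and, for the larger set, come from 2 tables. By the same measure the rows most like Cybb were Sla (0.995), Acsl1 (0.994) and Igsf6 (0.994) among 13914 rows over 9 libraries, and Scaf4 (0.998), Plxnd1 (0.997) and Gm37747 (0.996) among 12237 rows over 6.

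Other oxidase genes gave the setting for the 7. Of 14 listed genes in the tables, among them the other Nox and Duox catalytic subunits and their partners, 8 were under an FPKM of 1 in all 9 libraries and Nox3 was listed at 0 throughout. Nox1, the catalytic subunit known from colon, averaged 0.366, 0.600 and 1.15 FPKM in M0, M1 and M1 + PBM and did not reach the minimum for testing. Of the 5 genes tested 0 passed in M1 + PBM against M1 with p unadjusted at or under 0.05, against 4.44% of rows. Of the 5 kept over 9 libraries, 2 were higher in M1 than in M0 without overlap, as deposited, and 0 were lower (15.6% and 50.6% of rows). Those higher were Rap1b, named after its values were seen, and Cybc1, whose protein the maturation of cytochrome b558 needs, at 13.2 ± 0.659 FPKM in M0, 29.6 ± 1.76 in M1 and 31.8 ± 5.09 after PBM (SD, n = 3 each). Its log2 fold change between M1 + PBM and M1 was 0.09 (limma, adjusted p = 0.92).

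Of 27 regulators of the oxidase, which switch it on or restrain it (Rac exchange factors, kinases and others), 24 were tested. Of these, 2 were higher and 0 lower in M1 + PBM with p unadjusted at or under 0.05, against 2.99% and 1.45% of rows. Dock2, a Rac exchange factor of blood cells, was at 27.3 ± 0.876 FPKM in M1 and 33.1 ± 3.13 after PBM (SD, n = 3 each, log2 fold change 0.27, limma, adjusted p = 0.90). Mapk14, the p38α kinase that can phosphorylate p47phox, was at 11.8 ± 3.31 and 16.9 ± 1.22 (SD, n = 3 each, log2 fold change 0.52, limma, adjusted p = 0.90). With the replicate numbers as blocks 5 genes of this list were higher and 0 lower, against 4.84% and 3.24% of rows. These were Dock2, Mapk14 and, named after their values were seen, Vav2, Cyth4 and Nrros (limma, adjusted p = 0.58 for each). Nrros is one of those that restrain the oxidase. In M1 beside M0, as deposited, 9 of 26 genes kept were higher and 12 lower without overlap, against 15.6% and 50.6% of rows. Dock2 and Mapk14 were among the lower. Median-of-ratios scaling brought the all-row shares to 31.6% and 25.3%. The counts of this and the other lists beside M0 were not repeated under it. Whether a gene called lower, such as Mapk14, stays so was not tested.

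Of 15 transcription factors tied to oxidase genes, 11 were tested in M1 + PBM against M1. In the fit without blocks, 0 were higher and 1 lower with p unadjusted at or under 0.05, against 2.99% and 1.45% of rows. That gene was Cebpb, at 30.9 ± 0.641 FPKM in M1 and 23.8 ± 4.41 after PBM (SD, n = 3 each, log2 fold change -0.38, limma, adjusted p = 0.90). In M1 beside M0, as deposited, 6 of 11 were higher and 2 lower without overlap (15.6% and 50.6% of rows). Of the factors behind the letters marked in the promoters, and chosen for that after their values were seen, Spi1 averaged 59.3 ± 5.61, 87.0 ± 10.6 and 86.9 ± 4.05 FPKM in M0, M1 and M1 + PBM (SD, n = 3 each). Irf8, a partner of PU.1, averaged 17.9 ± 8.70, 9.93 ± 4.33 and 10.4 ± 3.16 (SD, n = 3 each), with overlapping groups.

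Of 15 genes that dispose of superoxide and peroxide, 14 were tested in M1 + PBM against M1. Without blocks, 0 were higher and 1 lower with p unadjusted at or under 0.05, against 2.99% and 1.45% of rows. The lower gene was Prdx5, a peroxiredoxin, at 263.9 ± 18.2 FPKM in M1 and 200.6 ± 23.1 after PBM (SD, n = 3 each, log2 fold change -0.40, limma, adjusted p = 0.90). In M1 beside M0, as deposited, 4 of 14 were higher and 5 lower without overlap (15.6% and 50.6% of rows). Examples chosen after their values were seen are Sod2, the mitochondrial superoxide dismutase, at 10.7 ± 7.20 in M0 (19.0 in replicate 3) and 118.9 ± 18.4 in M1, and Gpx1, a glutathione peroxidase, at 220.4 ± 42.0 in M0 and 43.8 ± 7.16 FPKM in M1 (SD, n = 3 each). Across the 4 lists 0 genes had an adjusted p under 0.05 in limma. Median log2 fold changes of M1 + PBM against M1 were 0.02 for the other oxidase genes and 0.13 for the regulators. They were 0.01 for the transcription factors and -0.05 for the superoxide list, beside 0.06 over all rows.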

How the data were processed

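RNA of BMDMs was sequenced as 9 strand-specific Illumina libraries, 3 each of M0, M1 and M1 + PBM. The authors deposited FPKM per gene in 2 tables with shared row names (55655 rows, of which 320 are assembled loci without a gene identifier). The study's methods name Cufflinks for FPKM. The submitters' processing notes list Bowtie 0.12.2 and mm9 with no role, and the strand setting of the counting is not given in the sources used here. Symbols were matched to 55154 rows (GENCODE M21).

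The genes and lists were chosen with earlier results of these data known. The 12238 rows that reached an FPKM of 1 in 3 or more of the 6 libraries entered limma 3.58.1 in R 4.3.3, with a trended prior, on log2(FPKM + 1), a scale that understates changes of low genes. P-values were adjusted by Benjamini-Hochberg over all rows. Single values were compared by exact permutation in scipy 1.17.1. Named were the 7 genes, Cybc1, up to 3 genes per list with an unadjusted p of at most 0.05, and the 3 rows most like Cybb over each set of libraries. Nox1, Rap1b, Vav2, Cyth4, Nrros, Spi1, Irf8, Sod2 and Gpx1, markers and genes that overlap the 7 were named outside this rule. Some genes that this rule or the lists hold are not reported here. The script was tested on simulated data. Alternatives were a pseudocount of 0.1, other filters, median-of-ratios scaling, quantile normalization, no trend in the prior, the replicate number as a block, and leaving out each library.

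The steps between low FPKM values of single-transcript genes gave a depth of 30750000 to 41990000 fragments per library, with 32.8% to 35.4% of low values whole within 0.05, against 10% by an even spread. A finer step gave 61490000 to 83980000, with 39.3% to 41.3% of low values whole. Depth was thus not settled, no read counts were recovered and no count test was run. Same-numbered M1 and M1 + PBM libraries deviated together from their group means, with correlations of 0.157, 0.469 and 0.462. Other pairs gave -0.491 to 0.0328. Those values are not independent of the first, because deviations cancel out within each group. The numbers were taken to pair the libraries. This pairing comes from the data, since the labels give only the numbers.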

Additional observations from a re-analysis of the deposited data

How the results depend on the processing

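Under every alternative 0 of the 7 oxidase genes passed in M1 + PBM against M1, at an adjusted p under 0.05 or an unadjusted p of at most 0.05 in limma. At the adjusted threshold only 1 of all rows passed under each alternative. The count of 0 there could thus hardly differ, and nothing about these genes is concluded from it. The number of all rows at an unadjusted p of at most 0.05 was 543, and it became 1318 with no minimum FPKM, 233 with a mean FPKM of at least 5, 988 with the replicate number as a block, and 259 to 1089 leaving out 1 library at a time. The replicate block changed no call on an oxidase gene. The median log2 fold change of the 7 genes was 0.03, -0.052 with median-of-ratios scaling, 0.11 with quantile normalization, 0.03 without the trend in the prior and -0.10 to 0.20 leaving out 1 library. With that scaling Cybb changed sign to -0.052, Cyba to -0.062, Ncf1 to -0.0068, Ncf4 to -0.028 and Rac2 to -0.067. Leaving out 1 library also turned signs, with ranges of -0.17 to 0.22 for Cybb, -0.18 to 0.14 for Cyba, -0.10 to 0.20 for Ncf1, -0.10 to 0.18 for Ncf4, -0.13 to 0.18 for Rac2 and -0.72 to 0.43 for Hvcn1, while Rac1 stayed above 0 at 0.10 to 0.77. Leaving out 1 library, 4 to 5 genes were higher without overlap in M1, and in M1 + PBM, than in M0. For counts that leave out 1 library the share of all rows is not given here. With fewer libraries any row separates more readily, so nothing is concluded from these counts. Ratios ranged from -0.059 to 0.087 for Cybb over Cyba, -0.10 to 0.11 for Ncf1 over Ncf4, -0.034 to 0.18 for Ncf1 over Cybb and -0.83 to -0.059 for Rac2 over Rac1. Beside M0, the count of genes lower in M1 went from 1 to 0 with median-of-ratios scaling, where Rac1 was at 0.042, and the count lower in M1 + PBM went from 0 to 1 without M1 + PBM replicate 1. Beyond the construction of each alternative the cause was not tested. The depth was not settled between the coarser and the finer step, the only ones searched, and 3 libraries a group limit the exact tests to a p of 0.1.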
